A study of Arabidopsis thaliana with 9 samples.

Results

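The subject is 10 genes of phloem identity and differentiation, followed in root tips of Arabidopsis thaliana. They were chosen by gene identity, from published roles in the phloem, and all 10 were among the 33560 genes of the deposited table. They are APL (AT1G79430), CVP2 (AT1G05470), OPS (AT3G09070), BRX (AT1G31880), BAM3 (AT4G20270), SMXL3 (AT3G52490), SMXL4 (AT4G29920), SMXL5 (AT5G57130), NAC45 (AT3G03200) and NAC86 (AT5G17260). RNA sequencing libraries came from 3 genotypes, with 3 libraries each. The seu-3 mutant carries an altered SEU gene, which encodes a transcriptional co-regulator. The wox5-1 mutant carries an altered WOX5 gene, which encodes a homeobox transcription factor of the quiescent centre, the rarely dividing cells at the middle of the root stem cell niche. Col-0 is the wild type. Seeds of every genotype had 2 days of cold and then 5 days of upright growth on 1x MS medium with 1% sucrose in cycles of 16 h light and 8 h dark, without any further treatment. The labels give 2 lengths for the excised tip, about 1 mm in the design text and about 3 mm in the protocol. Whether the libraries of a genotype came from separate sowings is not stated, so p-values measure only the spread between these libraries.

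Phloem carries sugars and signals through files of sieve elements, which lose their nucleus as they mature, and through the companion cells beside them. In the root tip the first sieve elements, the protophloem, form a few cells away from the quiescent centre. There a set of membrane proteins and a peptide receptor set the moment of differentiation, and nuclear factors carry it out. Each library held RNA of the whole root tip, of which the phloem is a small part, so fewer phloem cells and less RNA per phloem cell cannot be told apart.

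The values are FPKM, fragments scaled by transcript length and by library depth, so levels can be compared between genes. Differences are of log2(FPKM + 1), which understates the change of genes as low as these. Tests are limma's moderated test over the 17062 genes that averaged 1 FPKM or more across the 9 libraries, with p-values adjusted over all of them by Benjamini-Hochberg and a call made below 0.05. Of the 10 phloem genes, 4 passed that minimum (CVP2, OPS, BAM3 and SMXL3). The other 6 were read from a second limma fit over the 23816 genes above 0 FPKM in any library, called the fit without a minimum below. A zero in the table is given as listed at 0, since zeros were not always low expression: TPL, an abundant co-repressor gene named after its values were seen, was listed at 0 in the first wox5-1 library, while the other 2 wox5-1 libraries held 48.6 and 45.6 FPKM.

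At the mutated genes, SEU set the seu-3 libraries apart, while WOX5 did not tell wox5-1 from seu-3. WOX5 rested on roughly 2.63 to 5.15 fragments per Col-0 library. WOX5 was 0.0884 FPKM in seu-3 replicate 1 and listed at 0 in seu-3 replicates 2 and 3 and in all 3 wox5-1 libraries, against 0.301, 0.461 and 0.524 FPKM in Col-0. SEU was 4.73, 5.22 and 4.19 FPKM in seu-3, 13.3, 13.3 and 13.0 FPKM in wox5-1, and 18.7, 13.3 and 13.2 FPKM in Col-0, and overlaps AT1G43860 on the opposite strand. Judged by the smallest steps of the values, a library held roughly 7.30 to 13.3 M fragments. The median difference of all tested genes was -0.24 between seu-3 and Col-0, -0.27 between seu-3 and wox5-1, and 0.05 between wox5-1 and Col-0. Median-ratio scaling, which sets the median gene equal between libraries, brought these to 0.01, 0.02 and 0.01. Called changes in seu-3 are therefore also given relative to that median for genes above the minimum, and with median-ratio scaling for genes under it.

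One library stood apart. The summed level of 5 pollen genes was 0.941 to 2.02 FPKM in seu-3, 10.2, 4.42 and 71.8 FPKM in wox5-1 replicates 1, 2 and 3, and 0.959 to 1.48 FPKM in Col-0. Of the 5, AGP23, AGP40 and VGD1 were listed at 0 in all seu-3 and Col-0 libraries, and 3 of the 4 tested were called higher in wox5-1 than in Col-0. The summed level of 3 shoot genes was 4.12 to 6.67 FPKM in seu-3, 5.96, 2.04 and 34.5 FPKM in wox5-1, and 2.55 to 5.53 FPKM in Col-0, with STM listed at 0 in every library. Both sums were highest in wox5-1 replicate 3, and the pollen sum was above all seu-3 and Col-0 libraries in each wox5-1 library. Without that library, 1 of the 4 tested phloem genes was called in wox5-1 against Col-0 (SMXL3, adjusted p = 0.0457 in limma) in place of 0, and APL kept its call there without a minimum (adjusted p = 0.0217). Of the calls of phloem genes in seu-3 against wox5-1, that of NAC86 was lost without it and the other 6 held. The part of pollen and shoot RNA in the levels of the phloem genes was not tested.

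The summed level of the 10 phloem genes was lowest in seu-3 and highest in wox5-1, with BAM3 as its largest part. It was 4.78 to 8.04 FPKM in seu-3, 13.7 to 15.8 FPKM in wox5-1 and 10.7 to 11.2 FPKM in Col-0, without overlap between any genotypes. In Col-0 CVP2, SMXL3 and OPS came next, at means of 1.64, 1.46 and 1.43 FPKM with overlapping libraries, followed without overlap by SMXL5 at 0.992 FPKM and APL at 0.575 FPKM. BRX, SMXL4, NAC45 and NAC86 stayed under 0.5 FPKM in every library. Roughly 77.1 to 178 fragments per library lay behind BAM3, but 0 to 2.32 behind BRX, 0 to 6.92 behind NAC45 and 0 to 5.13 behind NAC86.

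**Figure D1:**
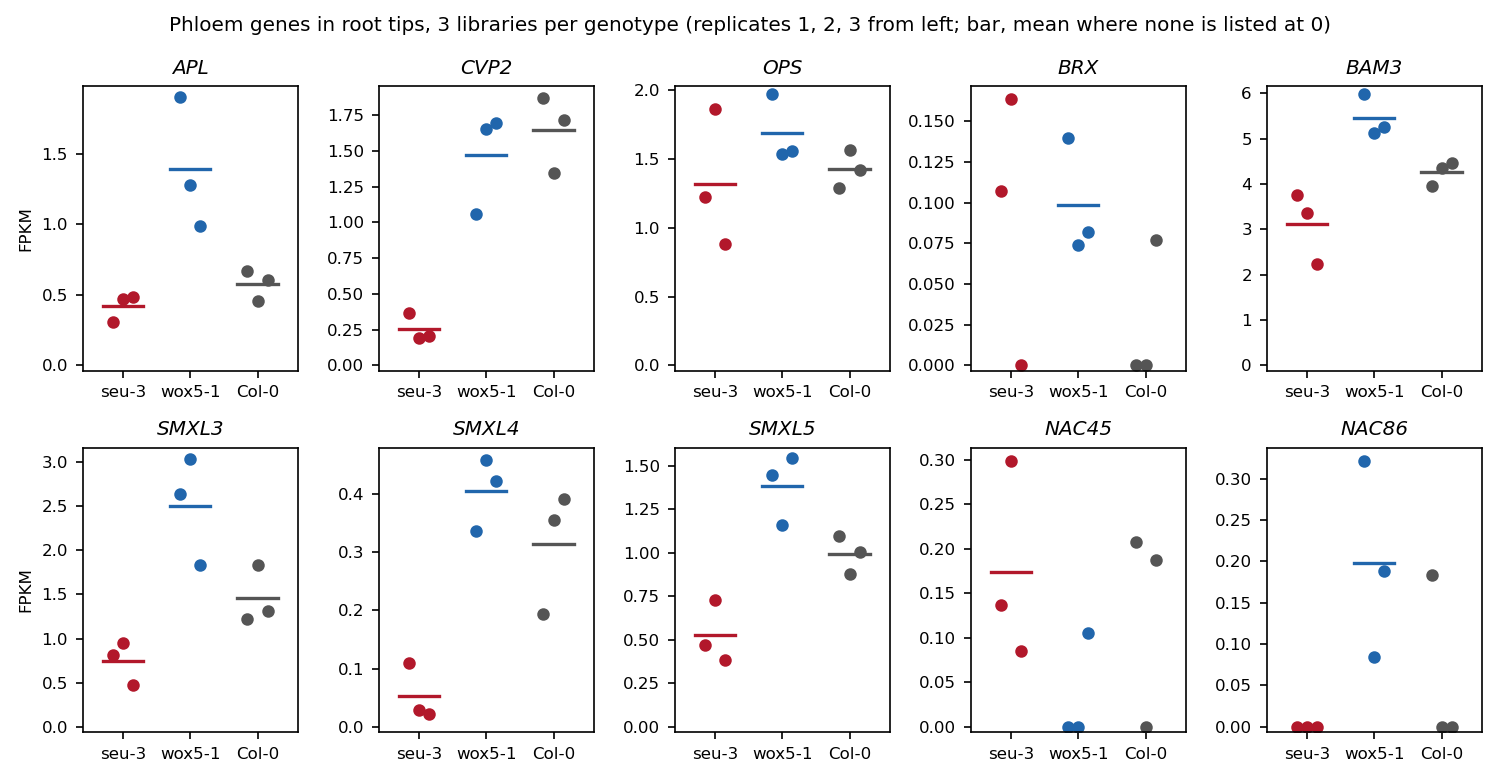
FPKM of the 10 phloem genes in each library (points, replicates 1 to 3 from the left in each genotype) with the mean of 3 libraries as a bar, left out where a library is listed at 0; each panel has its own linear axis from 0. The seu-3 libraries lie below all wox5-1 libraries for APL, CVP2, BAM3, SMXL3, SMXL4, SMXL5 and NAC86.

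APL encodes a MYB-type transcription factor needed for phloem identity. It was 0.306, 0.473 and 0.487 FPKM in seu-3, 1.90, 1.28 and 0.991 FPKM in wox5-1, and 0.669, 0.454 and 0.601 FPKM in Col-0. Every wox5-1 library lay above every library of the other genotypes, while seu-3 and Col-0 overlapped. Against Col-0, APL was 2.42-fold higher in wox5-1 (1.39 ± 0.465 FPKM, against 0.575 ± 0.110 FPKM, SD, n = 3 each). That fold rested on roughly 11.1 to 25.3 fragments per wox5-1 library and 5.58 to 8.59 per Col-0 library. The log2 difference was 0.59 (SE 0.14) with an adjusted p of 0.0284 in limma without a minimum, and the exact two-sided permutation p was 0.1, the smallest that 3 libraries against 3 can give. That call was lost without any 1 of the Col-0 libraries (adjusted p = 0.0553, 0.0955 and 0.0606 without replicates 1, 2 and 3) and without wox5-1 replicate 1 (adjusted p = 0.0605). APL was 3.30-fold lower in seu-3 than in wox5-1, with a log2 difference of -0.73 (SE 0.14, adjusted p = 0.00256 in limma without a minimum) and of -0.60 with median-ratio scaling (adjusted p = 0.00648). Leaving out any library kept this call, with adjusted p up to 0.0122. Between seu-3 and Col-0 the log2 difference of -0.15 was not called (adjusted p = 0.473).

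NAC45 and NAC86 encode related NAC transcription factors that act after APL and drive the breakdown of the sieve element nucleus. NAC86 was listed at 0 in all 3 seu-3 libraries, was 0.322, 0.0842 and 0.189 FPKM in wox5-1, and was 0.184 FPKM in Col-0 replicate 1 and listed at 0 in the other Col-0 libraries. Its wox5-1 libraries thus lay above all seu-3 libraries and overlapped Col-0. The difference between seu-3 and wox5-1 had an adjusted p of 0.0389 in limma without a minimum, and of 0.0429 with median-ratio scaling. It was lost without any 1 seu-3 library (adjusted p = 0.0885, 0.0839 and 0.0894 without replicates 1, 2 and 3) and without wox5-1 replicate 1 or 3 (adjusted p = 0.125 and 0.0744). NAC45 was 0.137, 0.299 and 0.0856 FPKM in seu-3. In wox5-1 it was listed at 0 in replicates 1 and 2 and was 0.106 FPKM in replicate 3. In Col-0 it was 0.208 and 0.188 FPKM in replicates 1 and 3 and listed at 0 in replicate 2. All genotypes overlapped for NAC45, and none of its comparisons was called. It was the only one of the 10 whose locus overlaps another annotated gene, AT3G03190 on the opposite strand, whose fragments may enter its value because strandedness is not stated.

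CVP2 encodes a phosphatase of membrane phosphoinositides that promotes protophloem differentiation. Of the 4 phloem genes above the minimum, it had the largest drop in seu-3 against Col-0. It was 0.364, 0.190 and 0.206 FPKM in seu-3, 1.06, 1.65 and 1.69 FPKM in wox5-1, and 1.87, 1.34 and 1.72 FPKM in Col-0. All seu-3 libraries lay far below the others, and wox5-1 and Col-0 overlapped. The fall in seu-3 was 6.48-fold against Col-0, at 0.254 ± 0.0961 FPKM against 1.64 ± 0.271 FPKM (SD, n = 3 each). That fold rested on roughly 5.56 to 17.1 fragments per seu-3 library and 37.9 to 56.4 per Col-0 library. The log2 difference was -1.07 (SE 0.16, adjusted p = 0.00323 in limma), and -0.83 relative to the median gene. Against wox5-1 it fell 5.79-fold, with a log2 difference of -0.97 (SE 0.16, adjusted p = 0.000724), or -0.70 relative to the median gene. Both calls held under every alternative run that tested the gene, including median-ratio scaling, with adjusted p up to 0.0152 and 0.00361. In wox5-1 against Col-0 the log2 difference was -0.10 (adjusted p = 0.643).

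OPS encodes a polar membrane protein that also promotes protophloem differentiation. It was 1.23, 1.86 and 0.880 FPKM in seu-3, 1.98, 1.54 and 1.56 FPKM in wox5-1, and 1.29, 1.56 and 1.42 FPKM in Col-0. The genotypes overlapped in every pair. No difference was called by limma: the adjusted p was 0.267 between seu-3 and wox5-1, 0.725 between seu-3 and Col-0, and 0.528 between wox5-1 and Col-0. BRX encodes a membrane-associated regulator of the same step. It was 0.107 and 0.164 FPKM in seu-3 replicates 1 and 2 and listed at 0 in replicate 3. In wox5-1 it was 0.140, 0.0738 and 0.0819 FPKM, and in Col-0 it was listed at 0 in replicates 1 and 2 and 0.0771 FPKM in replicate 3. The genotypes overlapped and no comparison was called, at the 0 to 2.32 fragments per library given above.

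BAM3 encodes a receptor kinase that perceives the peptide CLE45 and holds protophloem differentiation back. It was 3.77, 3.35 and 2.24 FPKM in seu-3, 5.98, 5.12 and 5.25 FPKM in wox5-1, and 3.97, 4.35 and 4.46 FPKM in Col-0. The 3 genotypes stood in order without overlap, with seu-3 lowest and wox5-1 highest, although seu-3 replicate 1 came close to Col-0 replicate 1. BAM3 was 1.75-fold lower in seu-3 than in wox5-1 (3.12 ± 0.788 FPKM, against 5.45 ± 0.463 FPKM, SD, n = 3 each). The log2 difference was -0.66 (SE 0.15, adjusted p = 0.00404 in limma), or -0.40 relative to the median gene. It shrank to -0.22 with quantile normalization, which ended the call (adjusted p = 0.166). The log2 difference between seu-3 and Col-0 was -0.37 (SE 0.15, adjusted p = 0.0795), or -0.12 relative to the median gene, and turned to 0.03 with quantile normalization. Between wox5-1 and Col-0 it was 0.29 (SE 0.15, adjusted p = 0.165).

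SMXL3, SMXL4 and SMXL5 encode related nuclear proteins that act redundantly and early in phloem formation, and belong to the family that also holds targets of strigolactone and karrikin signalling. SMXL3 was 0.810, 0.945 and 0.471 FPKM in seu-3, 2.63, 3.04 and 1.83 FPKM in wox5-1, and 1.22, 1.83 and 1.31 FPKM in Col-0. The seu-3 libraries lay below all others, and wox5-1 replicate 3 met the highest Col-0 library. The level of SMXL3 was 3.37-fold lower in seu-3 than in wox5-1. On the log2 scale it fell by 1.00 (SE 0.19, adjusted p = 0.00120 in limma), or by 0.73 relative to the median gene. This call held under every alternative run that tested the gene, with adjusted p up to 0.00983. Against Col-0, the log2 differences of -0.50 in seu-3 and 0.50 in wox5-1 (SE 0.19 each) missed the threshold, with adjusted p of 0.0576 and 0.0682. Without wox5-1 replicate 3 both passed, with adjusted p of 0.0475 in seu-3 and 0.0457 in wox5-1.

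SMXL4 was 0.110, 0.0281 and 0.0226 FPKM in seu-3, 0.336, 0.458 and 0.423 FPKM in wox5-1, and 0.194, 0.356 and 0.392 FPKM in Col-0. All seu-3 libraries were below all others, and wox5-1 and Col-0 overlapped. In the fit without a minimum it fell in seu-3 by 0.42 on the log2 scale against wox5-1 (SE 0.07, adjusted p = 0.00194) and by 0.32 against Col-0 (SE 0.07, adjusted p = 0.0165). With median-ratio scaling these log2 differences were -0.37 and -0.28, both still called (adjusted p = 0.00310 and 0.0261). On the FPKM scale they are 7.60-fold and 5.88-fold differences of means, resting on roughly 0.799 to 5.14 fragments per seu-3 library. SMXL5 was 0.469, 0.727 and 0.382 FPKM in seu-3, 1.45, 1.16 and 1.55 FPKM in wox5-1, and 1.09, 0.878 and 1.00 FPKM in Col-0. Its genotypes stood in order without overlap. SMXL5 was 2.63-fold lower in seu-3 than in wox5-1, with a log2 difference of -0.65 (SE 0.11, adjusted p = 0.00168 in limma without a minimum), and of -0.51 with median-ratio scaling (adjusted p = 0.00478). Against Col-0 it was 1.88-fold lower in seu-3 (log2 difference -0.39, SE 0.11, adjusted p = 0.0331), while the log2 difference of 0.26 between wox5-1 and Col-0 was not called (adjusted p = 0.137). Both calls against Col-0, made in the fit without a minimum, depended on single libraries. That of SMXL4 was lost on leaving out the second or the third Col-0 library or seu-3 replicate 3, with adjusted p of 0.0543, 0.0566 and 0.0601. That of SMXL5 was lost without any 1 Col-0 library or without seu-3 replicate 1 or 3, with adjusted p between 0.0575 and 0.114, and with median-ratio scaling, where the log2 difference was -0.28 (adjusted p = 0.0987). The calls of SMXL4 and SMXL5 against wox5-1 held without each library in turn, with adjusted p up to 0.00958 and 0.00857.

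Over the 10 genes, the contrast between the mutants was the widest. Of the 4 above the minimum, 3 fell in seu-3 against wox5-1 (CVP2, BAM3 and SMXL3), where 44.6% of all tested genes were called lower, and 7 of the 10 were called lower in the fit without a minimum, where 35.1% of genes were. The same 7 had all seu-3 libraries below all wox5-1 libraries, against 48.6% of all genes above the minimum and 18.2% of those under it. Between seu-3 and Col-0, 1 of 4 was called (CVP2, lower), where 34.2% of tested genes were called lower. Without a minimum 3 of 10 were called lower (CVP2, SMXL4 and SMXL5), against 24.2% of genes, and 5 had no overlap and lay below Col-0 (those 3, BAM3 and SMXL3), against 44.8% and 14.2% of genes above and under 1 FPKM. Between wox5-1 and Col-0, limma called 0 of 4, where 27.3% of tested genes were called in either direction. At an unadjusted p below 0.05 in limma it was 1 of 4, against 44.2% of tested genes. That count was 3 of 4 between seu-3 and Col-0, against 51% of tested genes, and 3 of 4 between seu-3 and wox5-1, against 68.1%. In wox5-1 against Col-0 the fit without a minimum called 1 of 10 (APL, higher), against 7.77% of genes called higher. The wox5-1 libraries lay above all Col-0 libraries for APL, BAM3 and SMXL5, which was the case for 30.2% of all genes above the minimum and 9.02% of those under it. The count of 1 in 4 between seu-3 and Col-0 was near the share of all genes, and the 3 comparisons share libraries.

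**Figure D2:**
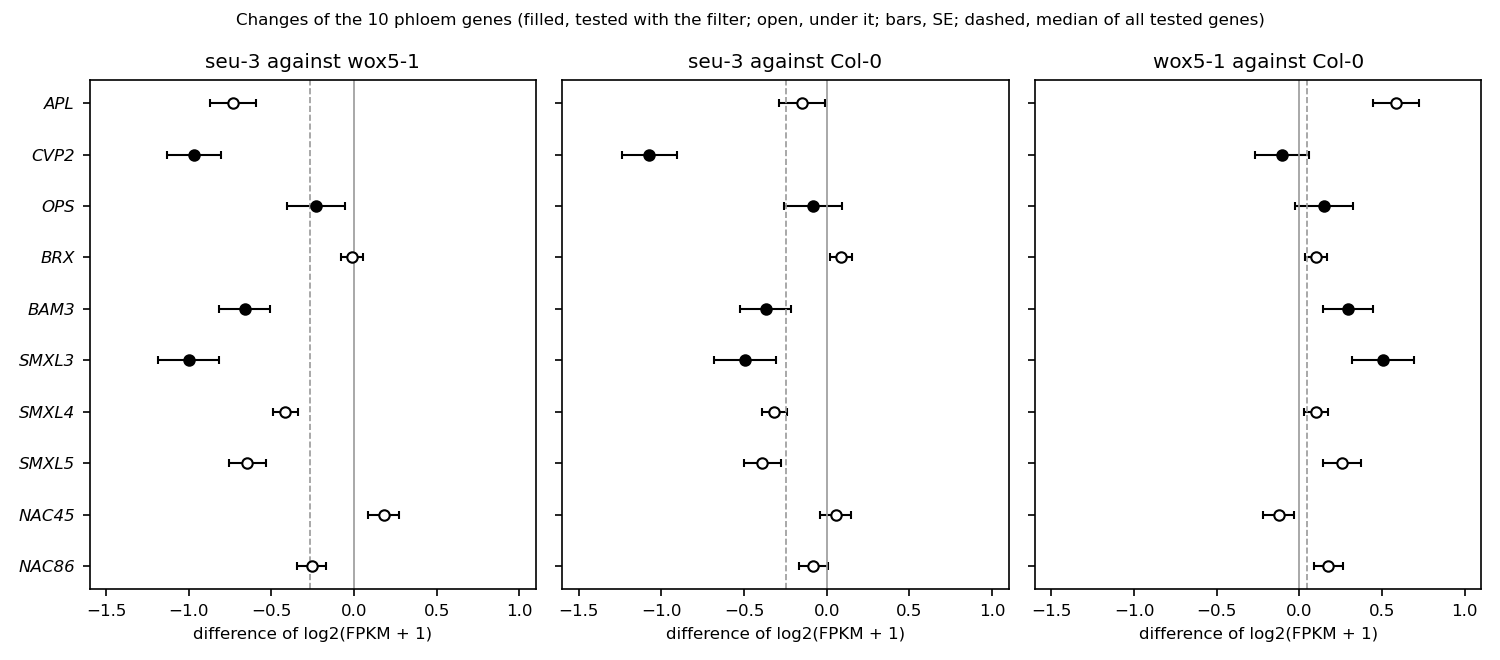
Differences of log2(FPKM + 1) of the 10 phloem genes in the 3 comparisons, first genotype minus second (points; filled, above the minimum of 1 FPKM; open, under it; bars, SE of limma). The dashed line is the median of all tested genes, at -0.27, -0.24 and 0.05 from left to right; differences of BRX, NAC45 and NAC86 rest on libraries listed at 0. CVP2 lies near -1 in both comparisons of seu-3, and APL lies at 0.59 in wox5-1 against Col-0.

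A further 45 genes in 5 lists, relatives of the 10 and other genes of phloem development and function, were read from the same fit, and 27 of them were tested. In seu-3 against wox5-1, 5 were higher and 12 lower, where 19.9% and 44.6% of all tested genes were. These counts became 6 and 12 with median-ratio scaling and 9 and 10 with quantile normalization. In seu-3 against Col-0, 2 were higher and 9 lower, where 6.66% and 34.2% of all tested genes were. These counts became 3 and 3 with median-ratio scaling and 3 and 1 with quantile normalization. The counts of 12 and 9 genes lower in seu-3 were near the shares of all tested genes. In wox5-1 against Col-0, 6 were higher and 2 lower, where 13.7% and 13.5% of all tested genes were. Without wox5-1 replicate 3 these counts were 3 and 2. The median difference of the 27 was -0.25, -0.22 and 0.07 in these comparisons, close to the medians of all tested genes given above.

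Among close relatives, the BRX family was split. BRXL4 was 15.7, 16.2 and 15.9 FPKM in seu-3, 6.73, 7.72 and 7.29 FPKM in wox5-1, and 11.4, 11.5 and 9.05 FPKM in Col-0. It thus ran opposite to most phloem genes, highest in seu-3 and lowest in wox5-1 without overlap. It rose by 0.55 on the log2 scale in seu-3 (SE 0.11, adjusted p = 0.00636), or by 0.79 relative to the median gene, and fell by 0.49 in wox5-1 (SE 0.11, adjusted p = 0.0159), both against Col-0. The second call was lost without Col-0 replicate 2 or wox5-1 replicate 1 (adjusted p = 0.0664 and 0.0562). BRXL2 and BRXL3 fell in seu-3 against wox5-1, by 1.25 and 0.67 on the log2 scale (adjusted p = 0.00154 and 0.00232), or by 0.98 and 0.41 relative to the median gene. The call of BRXL3 was lost with quantile normalization (adjusted p = 0.111).

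BAM1 encodes a receptor kinase close to BAM3 that is not confined to the phloem. It was 12.3, 14.5 and 9.96 FPKM in seu-3, 26.7, 29.2 and 27.0 FPKM in wox5-1, and 19.2, 22.2 and 20.4 FPKM in Col-0. It kept the order of BAM3, again without overlap. It fell by 0.72 on the log2 scale in seu-3 against Col-0 (SE 0.13, adjusted p = 0.00471), or by 0.47 relative to the median gene. In wox5-1 it was called higher than in Col-0 by 0.41 (SE 0.13, adjusted p = 0.0445), a call that 10 of the other settings ended, among them leaving out any 1 of the Col-0 or wox5-1 libraries. SMAX1, SMXL2, SMXL6 and SMXL7, the tested relatives of SMXL3, SMXL4 and SMXL5, were not called in either mutant against Col-0. With median-ratio scaling SMAX1 was called higher in seu-3 than in Col-0, with a log2 difference of 0.66 (adjusted p = 0.0139). SMAX1 and BRXL4 were the 2 relatives called higher in seu-3 than in wox5-1, opposite to SMXL3, SMXL4 and SMXL5. SMAX1 was 8.97, 10.9 and 10.7 FPKM in seu-3, 6.02, 5.97 and 6.18 FPKM in wox5-1, and 8.88, 8.36 and 5.62 FPKM in Col-0.

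In the CLE receptor pathway, CLV2, a receptor-like protein that takes part in CLE peptide perception, was 0.910, 1.07 and 0.589 FPKM in seu-3, 3.73, 3.32 and 2.63 FPKM in wox5-1, and 0.724, 1.44 and 1.30 FPKM in Col-0. Only wox5-1 stood apart from both other genotypes. CLV2 rose by 0.98 on the log2 scale in wox5-1 against Col-0 (SE 0.19, adjusted p = 0.00800). CLE45, the peptide gene that pairs with BAM3, was under the minimum, at 0.117, 0.165 and 0.147 FPKM in seu-3, 0.902, 0.962 and 0.564 FPKM in wox5-1, and 0.388, 0.360 and 0.161 FPKM in Col-0. Its wox5-1 libraries lay above all others, and seu-3 replicate 2 was just above the lowest Col-0 library. The CLE45 locus overlaps AT1G69587 on the opposite strand, whose fragments may enter its value. BIN2, a kinase of brassinosteroid signalling that OPS is known to hold in check, was far more abundant, at 229 to 240 FPKM in seu-3, 139 to 175 FPKM in wox5-1 and 170 to 185 FPKM in Col-0. BIN2 rose in seu-3 by 0.40 on the log2 scale against Col-0 (SE 0.10, adjusted p = 0.0107), or by 0.65 relative to the median gene. The BIN2 locus overlaps AT4G18720 on the same strand.

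Phloem DOF factors are transcription factors that promote divisions around the protophloem. TMO6 was 1.50, 1.32 and 0.654 FPKM in seu-3, 6.22, 4.81 and 4.81 FPKM in wox5-1, and 2.50, 2.27 and 4.31 FPKM in Col-0. The genotypes did not overlap. TMO6 fell by 0.89 on the log2 scale in seu-3 against Col-0 (SE 0.22, adjusted p = 0.0127), or by 0.64 relative to the median gene. Quantile normalization ended this call (adjusted p = 0.0765). OBP2, the other factor tested, was 2.82, 3.19 and 1.68 FPKM in seu-3, 4.60, 5.02 and 6.17 FPKM in wox5-1, and 3.05, 3.12 and 1.84 FPKM in Col-0. Its seu-3 and Col-0 libraries overlapped. It rose by 0.78 in wox5-1 against Col-0 (SE 0.21, adjusted p = 0.0268), a call lost without wox5-1 replicate 3 (adjusted p = 0.0700), among other settings. PEAR1 was 0.0585 and 0.0922 FPKM in seu-3 replicates 1 and 2 and listed at 0 in replicate 3, against 0.608, 0.475 and 0.775 FPKM in wox5-1 and 0.167, 0.291 and 0.170 FPKM in Col-0. The summed level of the 6 factors was 2.49 to 5.01 FPKM in seu-3, 11.8 to 14.6 FPKM in wox5-1 and 6.45 to 7.03 FPKM in Col-0.

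Among genes of sieve element differentiation, CHER1, a choline transporter needed for sieve plates, was 2.57, 3.34 and 1.37 FPKM in seu-3, 10.6, 7.80 and 8.17 FPKM in wox5-1, and 3.88, 4.32 and 5.30 FPKM in Col-0, without overlap. Its log2 difference between seu-3 and wox5-1 was -1.56 (SE 0.22, adjusted p = 0.000276), or -1.29 relative to the median gene. Against Col-0 it was called in both mutants, by -0.72 in seu-3 and 0.84 in wox5-1 (SE 0.22 each, adjusted p = 0.0279 and 0.0250). The seu-3 difference from Col-0 was -0.47 relative to the median gene. Its call was lost without Col-0 replicate 2 or 3 or seu-3 replicate 1 or 3, with both other scalings and with only the 6 samples compared (adjusted p = 0.0510). The wox5-1 call was lost without Col-0 replicate 1 or 2 or wox5-1 replicate 1. The CHER1 locus overlaps AT3G15390 on the opposite strand. CALS3, a callose synthase of plasmodesmata, was 3.37, 4.18 and 2.47 FPKM in seu-3, 8.66, 8.27 and 9.15 FPKM in wox5-1, and 6.67, 6.22 and 5.69 FPKM in Col-0. It fell by 0.75 on the log2 scale in seu-3 against Col-0 (SE 0.15, adjusted p = 0.00581), or by 0.50 relative to the median gene. This call was lost only with quantile normalization (adjusted p = 0.0526). NEN1 ran the other way, at 4.86, 3.50 and 4.53 FPKM in seu-3, 2.67, 3.24 and 3.26 FPKM in wox5-1, and 3.82, 3.92 and 4.79 FPKM in Col-0. It was called higher in seu-3 than in wox5-1, by 0.38 (SE 0.14, adjusted p = 0.0409 in limma). That call was lost in several other settings. All genotypes overlapped for NEN2. SEOA had its highest mean in Col-0, at 0.163, 0.205 and 0.327 FPKM in seu-3, wox5-1 and Col-0.

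Markers of mature sieve elements were scarce. SEOR1, which encodes a filament protein of sieve elements, was 0.557, 0.0974 and 0.203 FPKM in seu-3, 0.815, 1.39 and 0.645 FPKM in wox5-1, and 0.347, 0.674 and 0.841 FPKM in Col-0. CALS7, the callose synthase of sieve plates, was 0.180, 0.135 and 0.0985 FPKM in seu-3, 0.434, 0.477 and 0.501 FPKM in wox5-1, and 0.256, 0.241 and 0.275 FPKM in Col-0, without overlap. NEN4, a nuclease gene downstream of NAC45 and NAC86, was listed at 0 in 8 of 9 libraries and was 0.208 FPKM in Col-0 replicate 1.

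Of 5 tested phloem transport and companion cell genes, 1 was called in each comparison. SUC2, the sucrose loader of companion cells, was 2.21, 1.69 and 1.48 FPKM in seu-3, 1.42, 2.77 and 1.57 FPKM in wox5-1, and 1.98, 2.63 and 1.81 FPKM in Col-0. All genotypes overlapped. Neither SUC2 nor AHA3, a companion cell proton pump gene, was called in any comparison. SWEET11, a sucrose exporter gene, was 4.52, 4.05 and 2.76 FPKM in seu-3, 0.345, 1.58 and 0.540 FPKM in wox5-1, and 4.55, 4.11 and 2.58 FPKM in Col-0. It fell by 1.42 on the log2 scale in wox5-1 against Col-0 (SE 0.27, adjusted p = 0.00833), while seu-3 and Col-0 overlapped. AKT2 was listed at 0 in 4 of the 9 libraries, and PP2-A1 was listed at 0 in Col-0 replicate 1.

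**Figure D3:**
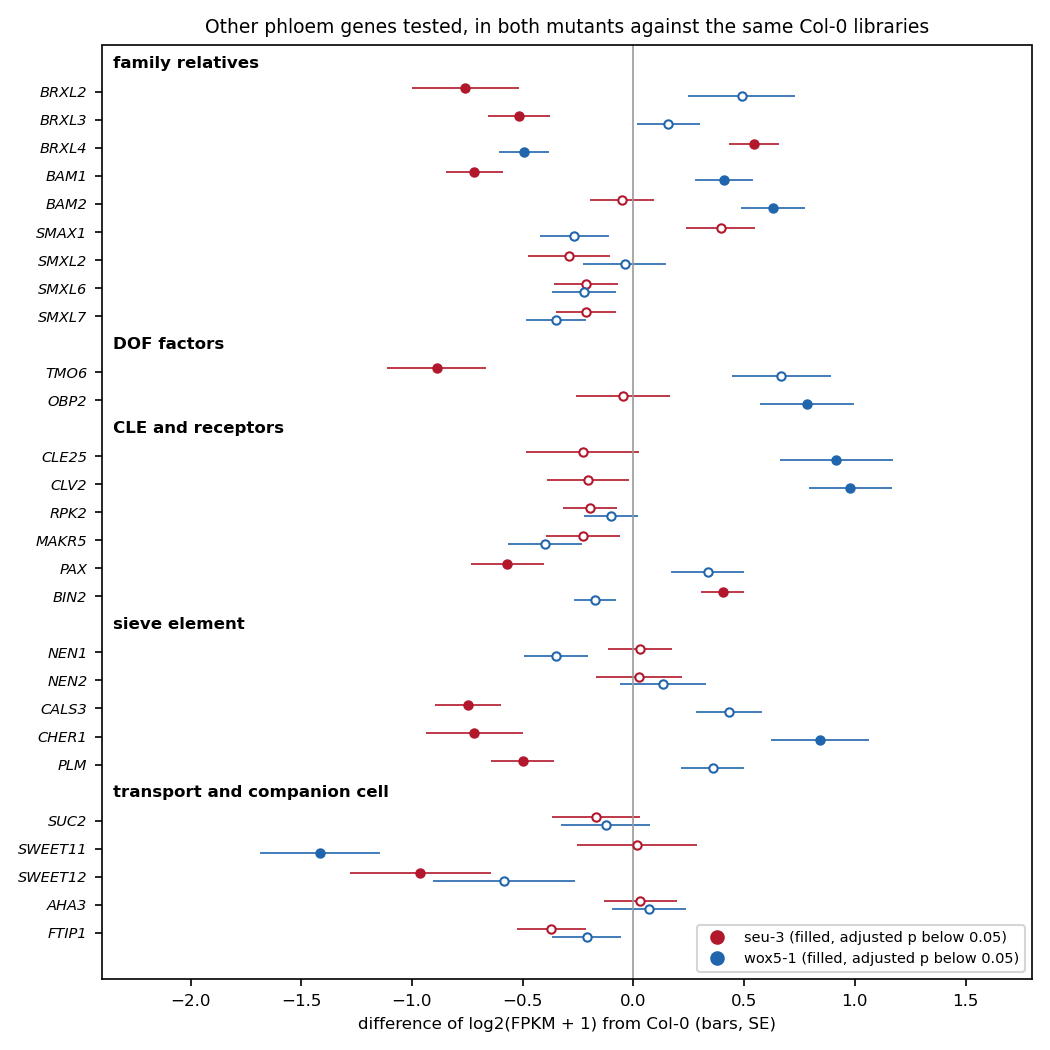
Differences of log2(FPKM + 1) from Col-0 of the 27 other phloem genes tested, in seu-3 (red) and wox5-1 (blue), grouped by list (points; filled, adjusted p below 0.05 in limma; bars, SE). Both mutants are set against the same 3 Col-0 libraries. Called genes lie left of 0 in seu-3 except BRXL4 and BIN2, and right of 0 in wox5-1 except BRXL4 and SWEET11.

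Other cell types moved in the same libraries. All 9 marker genes of dividing cells fell in seu-3 against both genotypes, and 6 of 9 rose in wox5-1 against Col-0. Their summed level was 13.2 to 33.5 FPKM in seu-3, 114 to 147 FPKM in wox5-1 and 59.8 to 80.7 FPKM in Col-0, the same order as the phloem genes, and none was listed at 0. With median-ratio scaling 8 of the 9 fell in seu-3 against Col-0, and with quantile normalization 6 did. Of 13 xylem genes, 10 were tested, and 4 fell in seu-3 against Col-0, where 34.2% of all tested genes were called lower. In wox5-1 against Col-0, 4 xylem genes rose (TMO5, LHW, ACL5 and PHB), where 13.7% of all tested genes were called higher. XCP1, XCP2, CESA4, CESA7 and CESA8 had log2 differences of -0.17, -0.25, -0.13, -0.03 and -0.41 there, and MYB46 of 0.52, none called. The summed xylem level was 39.5 to 59.3 FPKM in seu-3, 73.5 to 87.7 FPKM in wox5-1 and 63.1 to 73.0 FPKM in Col-0. With median-ratio scaling 3 xylem genes fell in seu-3 against Col-0, and with quantile normalization 1 did. Of 6 root cap genes, 5 were tested and all 5 fell in wox5-1 against Col-0, with a summed level of 153 to 164 FPKM in seu-3, 72.2 to 92.1 FPKM in wox5-1 and 144 to 177 FPKM in Col-0. The lowest sum of both the phloem genes and the dividing cell genes was that of seu-3 replicate 3. The part of these cell types in the levels of the phloem genes was not tested.

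**Figure D4:**
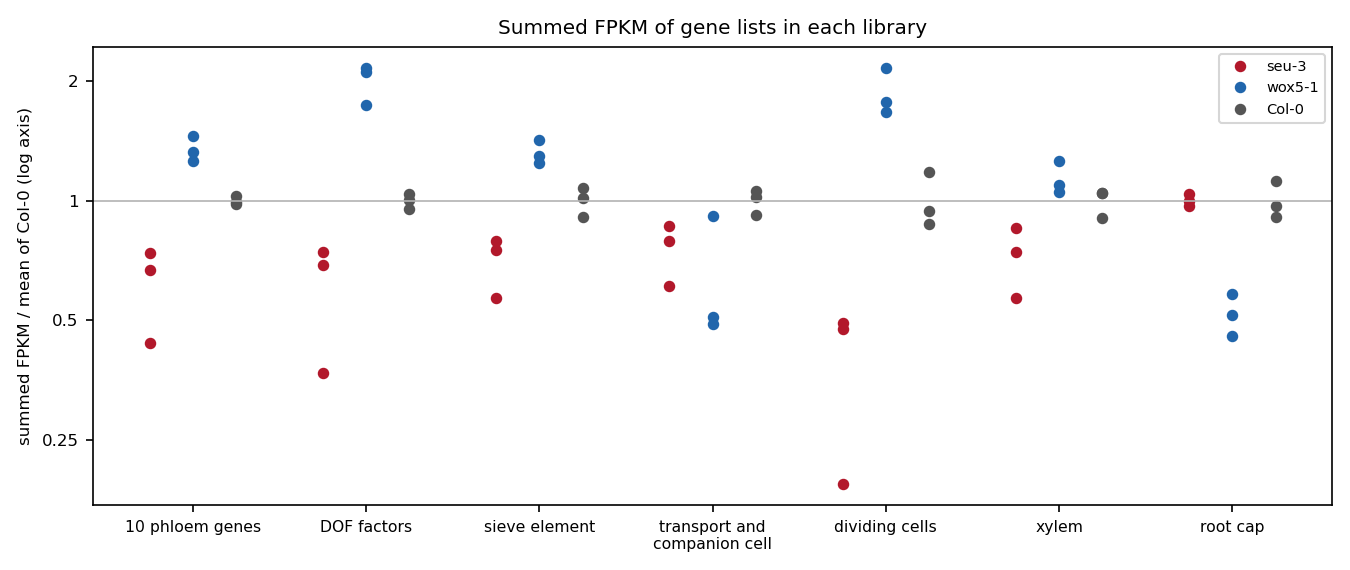
Summed FPKM of gene lists in each library, divided by the mean of the 3 Col-0 libraries (points, one per library; log axis). The sums of the 10 phloem genes and of the DOF factor, sieve element, dividing cell and xylem genes stand in order without overlap, seu-3 lowest and wox5-1 highest. Abundant genes weigh most: PLM, at a Col-0 mean of 21.7 FPKM, is a large part of the sieve element sum (40.3 FPKM in Col-0). XCP1, XCP2, CESA4, CESA7 and CESA8 of the xylem list do not keep this order, with their highest means in Col-0. For xylem the gap between Col-0 and wox5-1 is narrow. The sum of the transport and companion cell genes lies below the Col-0 range in every seu-3 and wox5-1 library. It does so narrowly in wox5-1 replicate 2, at 0.914 against 0.920 in the lowest Col-0 library. Only SWEET11 in wox5-1 and SWEET12 in seu-3 were called lower than in Col-0 in this list.

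The pattern of APL over the 9 libraries was compared with that of the 12057 genes that averaged 5 FPKM or more, as the root mean square difference of log2(FPKM + 1) after each gene was centred on its own mean. The SD of APL itself on this scale was 0.35. Because 1 FPKM was added, an equal log2 difference stands for a larger fold in APL than in these more abundant genes. The 5 nearest genes were AT3G07320 at a difference of 0.0939, AT4G35880 at 0.103, AT1G04680 at 0.108, AT1G13280 (AOC4, an allene oxide cyclase) at 0.108 and AT4G01900 (GLB1, the PII protein) at 0.110. AT3G07320 was 41.0, 43.6 and 42.9 FPKM in seu-3, 83.6, 67.0 and 70.5 FPKM in wox5-1, and 53.1, 48.2 and 49.9 FPKM in Col-0.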

How the data were processed

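The deposited values are FPKM, computed by the authors with Cufflinks after alignment with Bowtie to TAIR10, per the submitters' processing notes; versions, annotation, strandedness and RNA selection are not given in the sources used here. One table holds the 9 libraries. It sums to 794809 to 839181 FPKM per library. Read counts were not analysed here. The depth of roughly 7.30 to 13.3 M fragments was read from the finest spacing of low values, each multiplied by the length of its transcript in TAIR10.1, which also gave the overlaps between genes. Precision at low FPKM is limited by these few fragments.

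Values entered limma 3.58.1 (R 4.3.3) as log2(FPKM + 1), with an intensity trend, 1 fit of genotype over all 9 libraries and Benjamini-Hochberg adjustment over the 17062 genes that averaged 1 FPKM or more. For genes under it, the difference of means, an exact permutation test and the fit over the 23816 genes above 0 were used. Fold changes are ratios of group means. The fit was tested on simulated data. Of 33560 identifiers, 32826 had an entry in the annotation.

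The 10 genes and all gene lists were chosen with earlier results of these data known. Genes named are the 10, up to 4 called genes per phloem list and comparison by smallest p (in part printed), marker genes of the cell types, WOX5, SEU and the 5 genes nearest to APL. CLE45, PEAR1, CALS7, SMAX1, SMXL2, SMXL6, SMXL7, NEN2 and SEOA come from the same lists but were named after their values were seen. Alternatives were a pseudocount of 0.1 FPKM, no minimum, a minimum mean of 5 FPKM, quantile normalization, median-ratio scaling, a replicate block, no trend, only the 6 samples compared and leaving out each library. After the data were seen, the fit without a minimum was also run with median-ratio scaling and without each library. Replicate numbers are in the labels, but same-numbered libraries did not deviate together, so no pairing was used.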

Additional observations from a re-analysis of the deposited data

How the results depend on the processing

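Calls of CVP2 in seu-3 against both genotypes, and of SMXL3 in seu-3 against wox5-1, held under every alternative that tested them; with a mean of at least 5 FPKM none of the 10 genes was tested. Members called in seu-3 against Col-0 were 2 instead of 1 with a pseudocount of 0.1 FPKM, with the replicate block, with no trend in the variance prior and with only the 6 samples compared, SMXL3 being the added gene each time (with the block adjusted p = 0.0403 in limma), and 3 with no minimum. Without each library in turn they were 1 to 2. In wox5-1 against Col-0 the members called were 1 instead of 0 with no minimum and 0 to 1 without each library. In seu-3 against wox5-1 they were 7 instead of 3 with no minimum, 2 with quantile normalization and 3 to 4 without each library.

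Signs turned for values that were not called. In seu-3 against Col-0, quantile normalization gave a log2 difference of 0.073 for APL, 0.27 for OPS and 0.028 for BAM3, and median-ratio scaling gave 0.081 for OPS. Leaving out each library there gave -0.24 to 0.059 for OPS and -0.033 to 0.11 for NAC45, which was -0.033 without Col-0 replicate 2 and -0.022 without seu-3 replicate 2, with and without the minimum. In seu-3 against wox5-1, quantile normalization gave 0.17 for OPS and 0.033 for BRX, and median-ratio scaling gave 0.011 for BRX with and without the minimum. Leaving out each library gave -0.061 to 0.048 for BRX, which was 0.048 without seu-3 replicate 3 and 0.014 without wox5-1 replicate 1. In wox5-1 against Col-0, leaving out each library gave -0.19 to 0.022 for CVP2. Causes were not tested.

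All genes called numbered 1523 to 5628 without each library in wox5-1 against Col-0 (4653 with all) and 4575 to 7117 in seu-3 against Col-0 (6966 with all). Of the 27 other phloem genes tested, 8 were called in wox5-1 against Col-0, 4 with a mean of at least 5 FPKM and 2 to 12 without each library. In seu-3 against Col-0 they were 11, with 7 at a mean of at least 5 FPKM, 6 with median-ratio scaling, 4 with quantile normalization and 5 to 11 without each library. In seu-3 against wox5-1 they were 17, and 9 at a mean of at least 5 FPKM, where 11 genes were tested. Of all tested genes, 27.3%, 40.8% and 64.5% were called in these comparisons, in that order, with all libraries. The lowest counts came without Col-0 replicate 2 or wox5-1 replicate 1 in wox5-1, and without Col-0 replicate 3 or seu-3 replicate 3 in seu-3.

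Libraries with the same replicate number were not treated as pairs, since correlations of deviations between same-numbered libraries ran between -0.26 and 0.19, and between differently numbered ones between -0.36 and 0.35. With the replicate block, CLE25 in wox5-1 against Col-0, SWEET12 in seu-3 against Col-0 and NEN1 in seu-3 against wox5-1 were no longer called. Depth limits BRX, NAC45 and NAC86 most, at 7 fragments or fewer per library.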
